A study of Homo sapiens with 3 samples.

Results

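The 33 genes described here encode S100 proteins (19 genes) and annexins (14 genes). They are the autosomal protein-coding genes of GENCODE 44, lifted to GRCh37, whose symbol is S100 followed by a letter or ANXA followed by digits, out of 19222 autosomal protein-coding genes. S100G lies on chromosome X, and S100PBP and ANXA2R encode proteins outside both families, so these were left out. A peak was taken to be in reach of a gene when it lay in the gene body or when its centre was no more than 100 kb from a transcription start site (TSS) of its protein-coding transcripts. The peaks came from chromatin immunoprecipitation followed by sequencing (ChIP-seq) of Fra-1 and of Fra-2 in MDA-MB-231, a triple-negative (basal B) human breast cancer cell line long established in culture, kept in medium with 10% serum at 37°C. Fra-1 (FOSL1) and Fra-2 (FOSL2) are Fos family proteins that bind DNA together with a Jun protein as the AP-1 dimer. The labels speak of 2 independent replicates, but 1 peak list per factor was analysed and the input DNA was not analysed here. No value therefore has a spread between replicates, and no test between the factors or between groups of genes was possible.

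S100 proteins are small dimeric EF-hand proteins. Most bind calcium, change shape and then attach to target proteins, and several are also released from cells and act on receptors such as AGER and TLR4. Annexins bind acidic phospholipids of membranes when calcium rises, through a folded core shared by the family, while their N-terminal tails differ and carry the contacts with partners. The families meet in pairs: S100A10 holds the tail of annexin A2 in a complex at the plasma membrane that binds plasminogen, and S100A11 binds the tail of annexin A1. Most S100 genes lie together on chromosome 1, in the epidermal differentiation complex, which also holds the genes of the skin's cornified envelope.

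Members of the AP-1 family recognise the letters TGACTCA, which read TGAGTCA on the other strand. The stretches printed here come from peaks in reach of these genes and show where that element stands in each. All are GRCh37 (hg19) sequence, plus strand, 5′ to 3′, with the element in capitals. The first 6 belong to the widest Fra-1 peak with the element within 100 bp of its centre at a described locus, shortened to the part outside annotated UTRs to a short stretch around the element (ANXA2), or to the central 300 bases.
S100A10, promoter of an internal transcript chr1:151965055-151965200: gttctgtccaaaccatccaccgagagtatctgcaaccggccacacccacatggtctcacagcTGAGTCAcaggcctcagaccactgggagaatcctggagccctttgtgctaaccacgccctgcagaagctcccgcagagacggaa
S100A2, promoter chr1:153538321-153538500: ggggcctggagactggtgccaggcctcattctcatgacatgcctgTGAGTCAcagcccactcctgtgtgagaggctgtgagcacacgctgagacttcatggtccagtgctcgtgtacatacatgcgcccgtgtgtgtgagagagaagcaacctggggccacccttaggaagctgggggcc
ANXA3, intron chr4:79481801-79482050: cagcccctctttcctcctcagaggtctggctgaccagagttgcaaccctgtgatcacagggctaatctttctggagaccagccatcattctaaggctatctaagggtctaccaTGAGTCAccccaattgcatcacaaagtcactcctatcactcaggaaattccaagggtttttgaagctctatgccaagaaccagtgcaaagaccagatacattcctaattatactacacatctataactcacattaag
ANXA2, non-coding exon chr15:60685279-60685305: gattaatgacTGAGTCAcagggccaac
S100Z, upstream chr5:76086426-76086725: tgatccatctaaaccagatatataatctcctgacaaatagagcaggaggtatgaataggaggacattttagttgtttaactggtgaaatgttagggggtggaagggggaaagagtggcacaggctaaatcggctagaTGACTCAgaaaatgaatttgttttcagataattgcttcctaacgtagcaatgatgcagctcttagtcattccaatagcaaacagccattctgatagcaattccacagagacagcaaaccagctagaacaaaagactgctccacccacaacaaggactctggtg
ANXA6, downstream in TNIP1 chr5:150442901-150443050: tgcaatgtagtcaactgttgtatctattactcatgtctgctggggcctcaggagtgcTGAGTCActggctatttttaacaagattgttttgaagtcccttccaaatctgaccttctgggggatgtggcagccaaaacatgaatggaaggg

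A further 4 were added once peak positions were known. The first 2 are the S100A6 peak and the Fra-2 peak in S100A4 just upstream of S100A3, each in reach of 10 S100 genes. The others are a Fra-1 peak beside an inner ANXA2 TSS and the nearest upstream peak of ANXA1.
S100A6, past the 3′ end chr1:153506301-153506450: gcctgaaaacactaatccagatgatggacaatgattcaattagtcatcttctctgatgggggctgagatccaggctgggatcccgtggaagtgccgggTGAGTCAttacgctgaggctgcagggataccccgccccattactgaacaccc
S100A3, Fra-2 peak chr1:153521851-153522050: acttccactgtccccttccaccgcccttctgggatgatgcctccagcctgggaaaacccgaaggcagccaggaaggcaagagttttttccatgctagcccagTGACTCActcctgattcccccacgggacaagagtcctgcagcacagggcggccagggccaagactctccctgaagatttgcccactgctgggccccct
ANXA2, inner TSS chr15:60666901-60667050: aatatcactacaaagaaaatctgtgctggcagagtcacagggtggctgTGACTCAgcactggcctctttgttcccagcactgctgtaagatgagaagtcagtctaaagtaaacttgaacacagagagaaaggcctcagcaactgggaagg
ANXA1, upstream chr9:75764451-75764700: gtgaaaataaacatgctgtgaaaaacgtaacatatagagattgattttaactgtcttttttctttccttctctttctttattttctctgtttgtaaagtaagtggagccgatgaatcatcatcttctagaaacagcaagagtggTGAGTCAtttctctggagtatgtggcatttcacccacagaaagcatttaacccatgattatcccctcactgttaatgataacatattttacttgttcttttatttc

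Each printed stretch holds 1 copy of the element. Of 55 distinct copies within 100 bp of the centre of a peak in reach of the 33 genes, 8 (14.5%) had the flanked form ATGACTCAT. The left flank of 1 copy fell outside the searched window, and that copy counted as not flanked. Of all 433788 copies on the autosomes, 5.96% had the flanked form. Few of the 433788 copies, flanked or not, lay in peaks, 1.65% in Fra-1 and 2.41% in Fra-2 peaks. Copies in peaks of other genes were not compared, so the difference cannot be read as particular to these genes. Among autosomal windows of 201 bp, the length searched around each centre, 3.08% hold TGACTCA on either strand.

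Fra-1 peaks were in reach of 23 of the 33 genes (69.7%, interval 51.3 to 84.4), where 45.2% of all autosomal protein-coding genes had one. Fra-2 peaks were in reach of 27 (81.8%, 64.5 to 93.0), against a background of 58.9%. All intervals are 95% exact binomial (Clopper-Pearson), cover counting error only and treat neighbouring genes or peaks as independent, which those on chromosome 1 are not. The 23 genes with a Fra-1 peak all had a Fra-2 peak as well (42.5% of all genes had both). ANXA9, ANXA4, S100P and ANXA7 had a Fra-2 peak without a Fra-1 peak (12.1%, 3.40 to 28.2, background 16.4%). The reverse was found at 0 of the 33, which leaves a share of up to 10.6% within the interval (background 2.68%). The remaining 6, S100A9, S100A12, S100A8, S100A7A, ANXA8L2 and S100B, had neither (18.2%, background 38.4%).

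These counts lean on shared peaks. Together the 33 genes reached 45 distinct Fra-1 and 60 distinct Fra-2 peaks. On chromosome 1, 1 peak pair and 1 Fra-2 peak were each in reach of 10 S100 genes. When members with TSSs within 200 kb of each other counted as 1 locus, there were 19 loci, of which 13 had a Fra-1 peak, 17 a Fra-2 peak and 2 (ANXA8L2 and S100B) none. The shares of all genes given above are per gene and not per locus. The median gene had 3 peaks in each list, where the median of all autosomal protein-coding genes was 0 Fra-1 and 1 Fra-2 peak. The S100 genes had a median of 4 Fra-1 and 5 Fra-2 peaks, and the annexins 2 and 3. Both S100 medians are the same 4 and 5 peaks, counted for each gene from S100A6 to S100A1. In distinct peaks the 19 S100 genes had 16 Fra-1 and 19 Fra-2 peaks, and the 14 annexins 29 and 41.

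**Figure D1:**
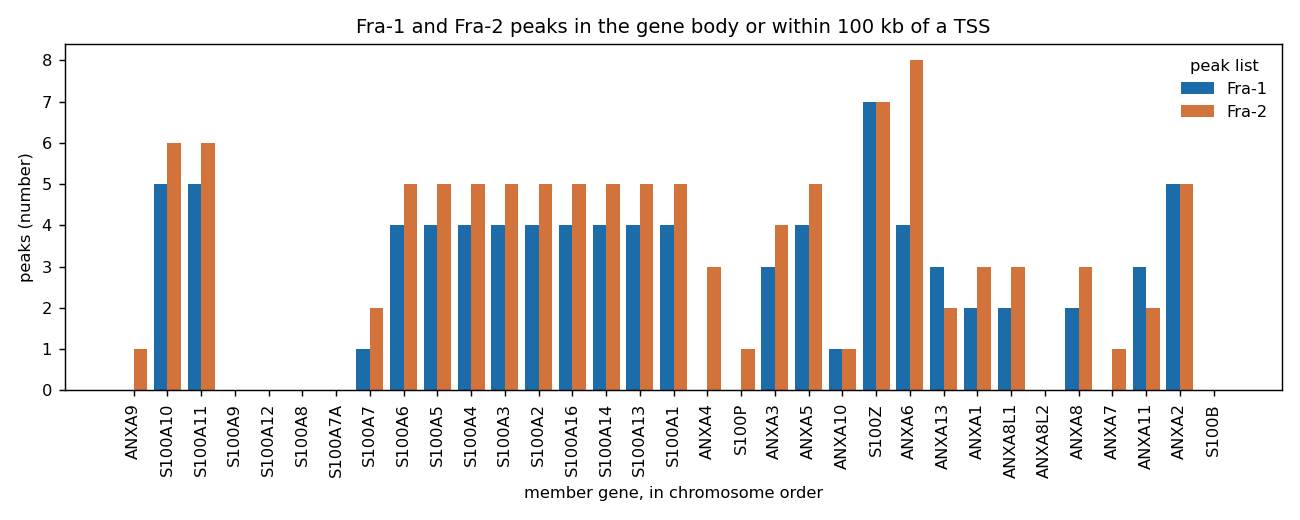
Number of Fra-1 (blue) and Fra-2 (orange) peaks in reach of each of the 33 genes, in chromosome order. S100Z (7 and 7) and ANXA6 (4 and 8) stand highest, S100A9, S100A12, S100A8 and S100A7A have none, and the equal bars from S100A6 to S100A1 are the same peaks counted for each gene.

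Peaks at promoters, with the centre within 1 kb of a TSS, were found for 5 genes in the Fra-1 list (15.2%, 5.11 to 31.9, background 1.91%): S100A10, S100A2, S100A16, ANXA3 and ANXA2. The Fra-2 list added S100A4 and S100A3, making 7 (21.2%, 8.98 to 38.9, background 3.75%). Those of S100A10, S100A2, S100A16 and ANXA2 belong to transcripts that start inside the gene. Measured from the gene's outermost 5′ end alone, a setting chosen after the data were seen, 2 genes kept a Fra-1 peak within 1 kb (ANXA3 and S100A11) and 4 a Fra-2 peak (with S100A3 and S100A4). The 5′ end of S100A11 is that of a transcript not annotated as protein-coding. The gene therefore does not appear in the first count. The shares of all genes above were not counted from the outermost 5′ end.

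S100A10 (chr1:151955391-151966335, minus strand) encodes p11, the partner of annexin A2, and had 5 Fra-1 and 6 Fra-2 peaks in reach. The widest, at chr1:151964901-151965201, was identical in both lists, 300 bp long and centred 3 bp from the TSS of the gene's inner transcript, which is 1.28 kb inside the outermost 5′ end. It held 2 copies of TGACTCA, of which the printed stretch shows the one outside the UTR. A second shared site lay in an intron, 200 bp wide in the Fra-1 list and 300 bp in the Fra-2 list, 4.0 and 3.95 kb from a TSS. Upstream, 1.27 kb from the outer TSS, both lists held the same 100 bp peak, which had no TGACTCA. So the start of S100A10 was flanked by peaks with and without the element within a few kilobases. The single site of the Fra-2 list alone, 150 bp wide at chr1:151945501-151945651, stood 19.5 kb from the nearest S100A10 TSS and held 2 copies.

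S100A11, which encodes the calgizzarin protein that binds annexin A1, lies next to S100A10 and was in reach of the same 5 Fra-1 and 6 Fra-2 peaks. Of these only the 100 bp peak at chr1:152020701-152020801, identical in both lists, had S100A11 as the gene of the nearest protein-coding TSS, 11.3 kb away. It lay 0.368 kb upstream of the annotated 5′ end of the gene. The other 5 sites were nearer to S100A10 or, for 1 of them, to THEM4. Over both genes, Fra-1 peaks covered 5 of the 56 TGACTCA copies in reach (8.93%) and Fra-2 peaks 7 (12.5%).

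ANXA2 (chr15:60639333-60695082, minus strand), whose protein links membranes to the actin cytoskeleton and forms the complex with p11, had 5 peaks in each list over 6 sites. It has 17 annotated protein-coding TSSs, which widens what counts as its promoter. At an inner TSS, a 150 bp Fra-1 peak and a 300 bp Fra-2 peak overlapped, centred 272 and 297 bp away, with the element printed above. A Fra-2 peak of 200 bp stood 55 bp from another TSS, held no TGACTCA and met no Fra-1 peak. The widest pair, 300 bp in the Fra-1 list and 400 bp in the Fra-2 list at chr15:60685201-60685601, covered a non-coding exon 1.85 and 1.91 kb from a TSS. The 250 bp peak at chr15:60663601-60663851 was identical in both lists and lay in an intron. Upstream of the gene, a pair of 150 and 200 bp at 4.79 and 4.77 kb and a Fra-1 peak of 100 bp at 5.67 kb all lacked the element. At ANXA2 the element was thus present at 3 of the 4 sites inside the gene and at none of those upstream.

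ANXA1, which encodes an anti-inflammatory ligand of the formyl peptide receptors, had 2 peaks of Fra-1 and 3 of Fra-2. The nearest was a 250 bp peak, identical in both lists, 2.21 kb upstream of a TSS and carrying the element printed above. The other shared peak, 200 bp at chr9:75791501-75791701, lay past the gene 19.0 kb from a TSS and had none. A Fra-2 peak of 100 bp stood 32.8 kb upstream. No peak centre fell within 1 kb of an ANXA1 TSS.

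The cluster from S100A9 to S100A1 holds 14 S100 genes, of which 9, from S100A6 to S100A1, had the same 5 sites in reach. Of these, 4 were in both lists and 1 in the Fra-2 list alone, and all 5 carried TGACTCA within 100 bp of a peak centre. S100A2, whose product is a calcium-binding protein of epithelial cells, had the closest pair of sites. The first, 300 bp in the Fra-1 list and 200 bp in the Fra-2 list, was centred 31 bp from a TSS. The second, of 300 and 350 bp at chr1:153539001-153539351, was centred 80 and 55 bp from another TSS and held 2 copies. Both sites stood inside the outermost 5′ end, 2.02 kb from it for the first and 1.22 and 1.19 kb for the second.

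S100A16, which encodes a widely expressed S100 protein, had a 150 bp Fra-1 peak and a 300 bp Fra-2 peak centred 287 and 262 bp from a TSS, 4.09 and 4.07 kb inside its outermost 5′ end. The peak of S100A6, the calcyclin gene, lay past the gene's 3′ end with its centre 2.09 kb (Fra-1, 150 bp wide) and 2.04 kb (Fra-2, 250 bp) from a TSS. The Fra-2 peak without a Fra-1 partner, 200 bp at chr1:153521851-153522051, lay in an intron of S100A4, whose gene body also contains S100A3. Its centre was 217 bp upstream of an S100A3 TSS and 661 bp inside S100A4, a gene known for its part in metastasis through non-muscle myosin. S100A3 is best known from hair follicle cells. The S100A4 promoter count therefore rests on this 1 peak, which S100A3 shares.

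The other genes on this side of the cluster had the same peaks in reach from further away. S100A5, S100A14, S100A13 and S100A1 each had 4 Fra-1 and 5 Fra-2 peaks, as did S100A6, S100A4, S100A3, S100A2 and S100A16, and none of the 4 had a peak within 1 kb of a TSS. S100A7, the psoriasin gene, had 1 Fra-1 and 2 Fra-2 peaks, because the S100A2 sites lay 105 and 106 kb from its TSS, just outside the 100 kb limit. Just inside it were the ANXA4 peak at 99.2 kb and the ANXA13 peaks at 98.7 kb (Fra-1) and 98.8 kb (Fra-2).

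The other end of the cluster, with the genes of the neutrophil proteins S100A8, S100A9 and S100A12 and with S100A7A, had no peak in reach. The nearest in either list was the S100A6 site, 116 kb from S100A7A, 143 kb from S100A8, 158 kb from S100A12 and 176 kb from S100A9. The reach of these 4 genes held 41 copies of TGACTCA, none of which could lie in a peak, since no peak was in reach. Over the whole cluster, 5 of 91 copies (5.49%) lay under Fra-1 peaks and 6 (6.59%) under Fra-2 peaks.

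**Figure D2:**
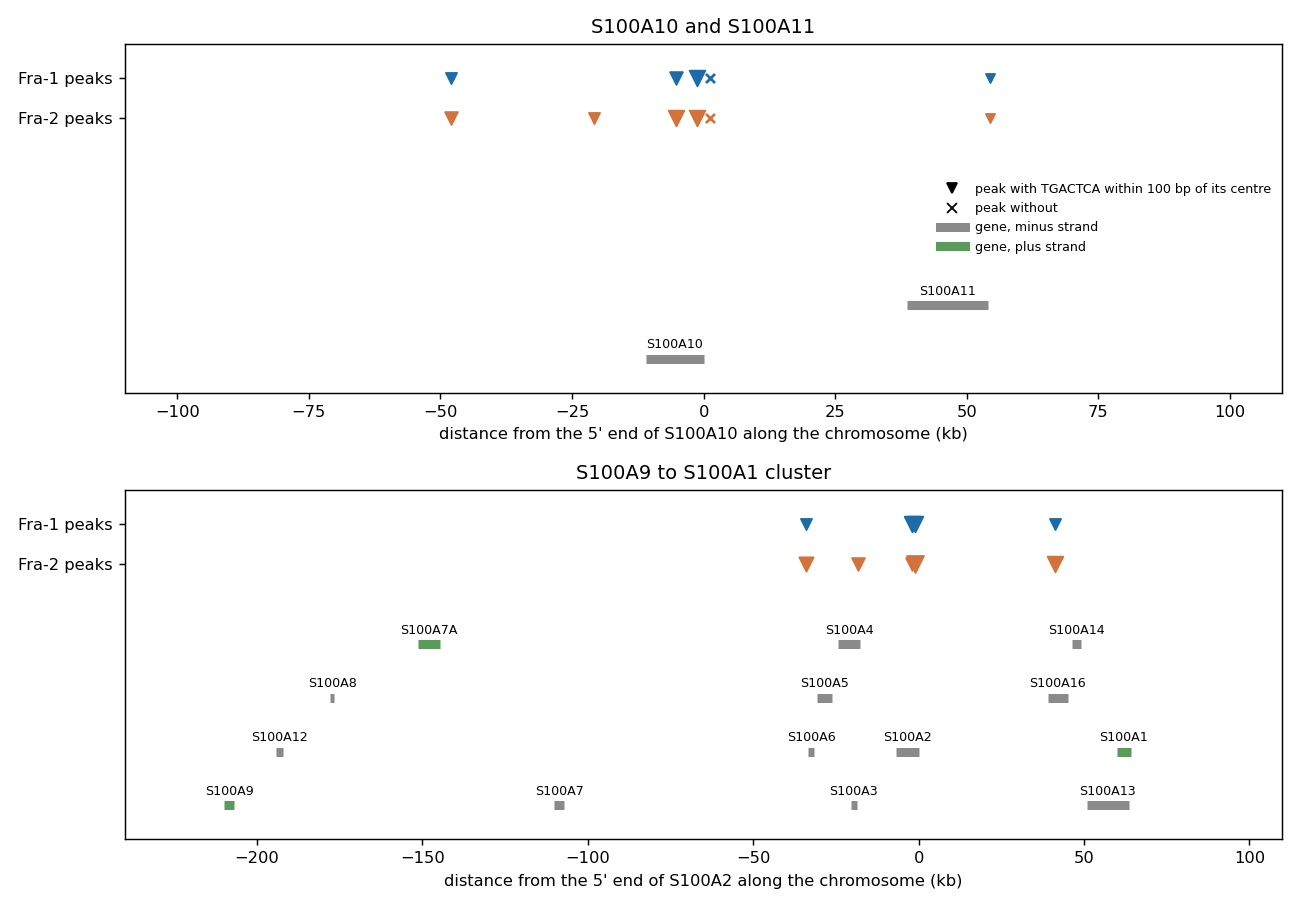
Peaks along both S100 regions of chromosome 1, with distance from the 5′ end of S100A10 (top) and of S100A2 (bottom) in kb; triangles are peaks with TGACTCA within 100 bp of the centre, crosses peaks without, and larger symbols wider peaks. All peaks of the lower map lie from just past S100A6 to S100A16, and S100A9, S100A12, S100A8 and S100A7A have none within 100 kb.

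Outside chromosome 1, S100Z (chr5:76145826-76217475, plus strand) had the most peaks of any S100 gene, 7 in each list over 8 sites. A group of 5 sites upstream, found in both lists, all carried the element and stood 35.6 to 64.4 kb from the S100Z TSS. They were nearer to F2RL1, the gene of a protease-activated receptor, at 4.56 to 33.3 kb. The widest peak of all 33 genes was among them, 450 bp at chr5:76086351-76086801, beside one of 400 bp at chr5:76101851-76102251 with 2 copies. Each was identical in both lists. A further 2 sites lay in an intron of CRHBP, 83.9 to 84.2 kb from S100Z. The only peak with S100Z as its nearest gene was a 100 bp Fra-1 peak 11.2 kb upstream, without the element or a Fra-2 partner. With the nearest TSS as the criterion S100Z would thus keep 1 Fra-1 and 0 Fra-2 peaks.

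S100P, which encodes a ligand of AGER, had a single 150 bp Fra-2 peak 4.73 kb upstream, with the element, and its nearest Fra-1 peak was 125 kb away. S100B, best known from glial cells, had its nearest Fra-1 peak at 628 kb and its nearest Fra-2 peak at 414 kb.

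Among the remaining annexins, most peaks of ANXA3 and of ANXA5 lay in the gene, as did most of those of ANXA4, ANXA10 and ANXA11. ANXA3 had 3 Fra-1 and 4 Fra-2 peaks: a 100 bp peak 580 bp from a TSS, identical in both lists, an intron peak of 250 bp (Fra-1) and 200 bp (Fra-2) at 6.85 and 6.88 kb, a shared peak without the element at 21.7 kb and a Fra-2 peak of 150 bp at 68.9 kb. ANXA5 encodes the protein widely used to stain exposed phosphatidylserine, and had 4 Fra-1 and 5 Fra-2 peaks over 6 sites, of which 5 are described here. A 250 bp peak 14.8 kb upstream of the gene was identical in both lists and carried the element. A pair of overlapping 100 bp peaks in an intron had none. The Fra-2 list alone held 100 bp peaks in a coding exon of ANXA5 and 9.87 kb upstream, both with the element within 100 bp of the centre. At the exon peak that copy lay just outside the peak. The Fra-1 list alone held a 150 bp peak without the element 32.0 kb upstream. At ANXA3 and ANXA5 each Fra-2-only site had the element within 100 bp of its centre.

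ANXA6, the largest annexin with a doubled core, had 4 Fra-1 and 8 Fra-2 peaks over 9 sites, more Fra-2 peaks than any other of the 33 genes. Only 1 site, a Fra-2 peak of 100 bp in an intron, lay in the gene. Of the others, 7 were nearest to TNIP1, the gene of an NF-kappaB regulator, including a Fra-2 peak 562 bp from its TSS, and 1 to GM2A. In the Fra-2 list alone were 5 sites, all with TGACTCA within 100 bp of the centre, although outside the peak itself for the intron peak. Accordingly Fra-1 peaks covered 2 of the 58 copies in reach (3.45%) and Fra-2 peaks 6 (10.3%).

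ANXA4, whose protein is abundant in epithelia, had 0 Fra-1 and 3 Fra-2 peaks, all with the element: 1 in the promoter of AAK1, 1.66 kb upstream of the annotated 5′ end of ANXA4, and 2 in introns of the gene. The AAK1 promoter peak is the one given above at 99.2 kb, its distance from the nearest protein-coding TSS of ANXA4. ANXA7 had 1 Fra-2 peak 5.60 kb upstream and ANXA9 1 Fra-2 peak of 200 bp 4.77 kb upstream, nearer to CERS2. Their nearest Fra-1 peaks were 205 kb (ANXA4), 474 kb (ANXA7) and 213 kb (ANXA9) away. All 5 Fra-2 peaks of these genes carried the element and were 150 or 200 bp wide.

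ANXA11, mutated in familial forms of motor neuron disease, had 3 Fra-1 and 2 Fra-2 peaks. An intron pair of 200 and 300 bp at 3.22 and 3.17 kb had the element, while a second intron pair and a Fra-1 peak of 150 bp 1.85 kb upstream did not. ANXA10 had 1 intron site, 200 bp in the Fra-1 list and 100 bp in the Fra-2 list, 5.81 and 5.76 kb from its TSS. ANXA13, the gene of an intestinal and renal annexin, had 3 Fra-1 and 2 Fra-2 peaks, all outside the gene and with a KLHL38 TSS nearest. The Fra-1-only peak of ANXA13 had no element and lay just past the 3′ end of that gene.

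ANXA8 and ANXA8L1 had 2 Fra-1 and 3 Fra-2 peaks each, 62.6 to 81.0 kb and 76.5 to 88.4 kb from a TSS, and nearest to ZNF488 and NPY4R2. ANXA8L2 had none within 571 kb. These genes are near copies. Of the 36-base words of ANXA8L1, 96.5% also occur in ANXA8, and 88.4% of those of ANXA8L2 do. How reads from such copies were placed is not given in the sources used here, so a missing peak inside them cannot be told apart from reads that could not be placed.

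**Figure D3:**
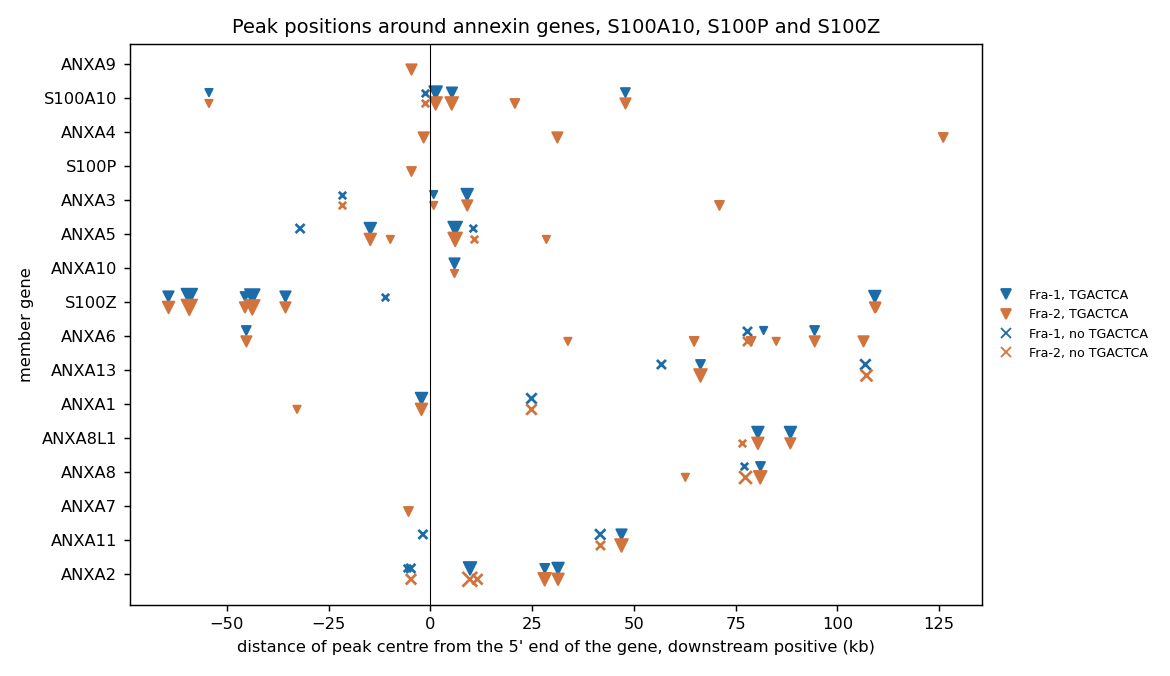
Distance of each peak centre from the outermost 5′ end of the gene, in kb with downstream positive, for the annexins with a peak and for S100A10, S100P and S100Z; blue is Fra-1, orange Fra-2, crosses lack TGACTCA within 100 bp of the centre. The peaks of ANXA8, ANXA8L1 and ANXA13 all lie beyond 50 kb, whereas S100A10, ANXA1 and ANXA3 have shared peaks within a few kilobases of the 5′ end.

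Merging both lists gave 66 sites in reach of the 33 genes: 39 in both lists (59.1%), 6 in the Fra-1 list alone (9.09%) and 21 in the Fra-2 list alone (31.8%). For the 10965 sites in reach of any autosomal protein-coding gene the shares were 50.4%, 12.1% and 37.5%. A member's TSS was the nearest for 37 of the 66 sites, and another gene's for 29. Seen from each list, the Fra-1 list shared 39 of its 45 peaks (86.7%, 73.2 to 94.9) and the Fra-2 list 39 of its 60 (65.0%, 51.6 to 76.9), where 80.6% and 57.4% of peaks in reach of any gene were shared. Both intervals include the value for all genes. Of the 39 pairs, 15 had the same start and end, the Fra-2 peak was wider in 17 and the Fra-1 peak in 6, and no pair of centres was more than 50 bp apart.

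TGACTCA stood close to the centre (within 100 bp) in 31 of the 45 peaks of the Fra-1 list (68.9%, 53.4 to 81.8) and 48 of the 60 of the Fra-2 list (80.0%, 67.7 to 89.2), against 65.0% and 75.1% of peaks in reach of any gene. The copy nearest the centre was a median of 26.0 bp away in the Fra-1 list and 19.5 bp in the Fra-2 list. By family, the S100 genes had it in 14 of their 16 Fra-1 peaks (87.5%, 61.7 to 98.4) and in 18 of 19 Fra-2 peaks (94.7%, 74.0 to 99.9). The annexins had it in 17 of 29 (58.6%, 38.9 to 76.5) and 30 of 41 (73.2%, 57.1 to 85.8). The families' intervals overlap in both lists, and the difference was not tested.

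The sites of a single list differed in this respect. Of the 21 Fra-2-only sites, 19 (90.5%) carried the element within 100 bp of the centre, against 1 of 6 Fra-1-only sites (16.7%). The latter, in TNIP1 downstream of ANXA6, had its copy 97 bp from the centre and outside the 100 bp peak. Copies outside the peak also counted for Fra-2-only sites of ANXA5, ANXA6 and ANXA1. The shared sites had it in 30 of 39 cases (76.9%). Sites in reach of any gene gave 80.8%, 41.1% and 72.2% in the same order, so single-list sites differed in the same direction there. The 6 Fra-1-only sites are few, and the difference was not tested. Peaks of a single list were narrower than shared ones in both lists, with medians of 125 against 200 bp for Fra-1 and 150 against 250 bp for Fra-2. For peaks in reach of any gene the medians were 150 against 200 bp in each list.

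Other recognition sequences were rarer. The TEAD letters GGAATGC and GGAATGT, found in 5.16% of autosomal windows, were near the centre of 3 Fra-1 peaks (6.67%, 1.40 to 18.3) and 7 Fra-2 peaks (11.7%, 4.82 to 22.6), and in peaks in reach of any gene in 14.1% and 11.5%. S100 genes had them in 0 of 16 peaks (Fra-1) and 1 of 19 peaks (Fra-2). The RUNX letters TGTGGTT (3.84% of windows) were found in 3 Fra-1 peaks (6.67%) and 6 Fra-2 peaks (10.0%), against 7.49% and 6.79%. The cyclic AMP response element TGACGTCA (0.0707% of windows) was found in 0 of the 45 and 0 of the 60 peaks, and in 0.247% and 0.455% of peaks in reach of any gene. More than 1 TGACTCA occurred in 3 Fra-1 peaks (6.67%), all of S100 genes, and in 5 Fra-2 peaks (8.33%), against 14.8% and 12.8%. All were searched on both strands, and none of these words contains another.

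**Figure D4:**
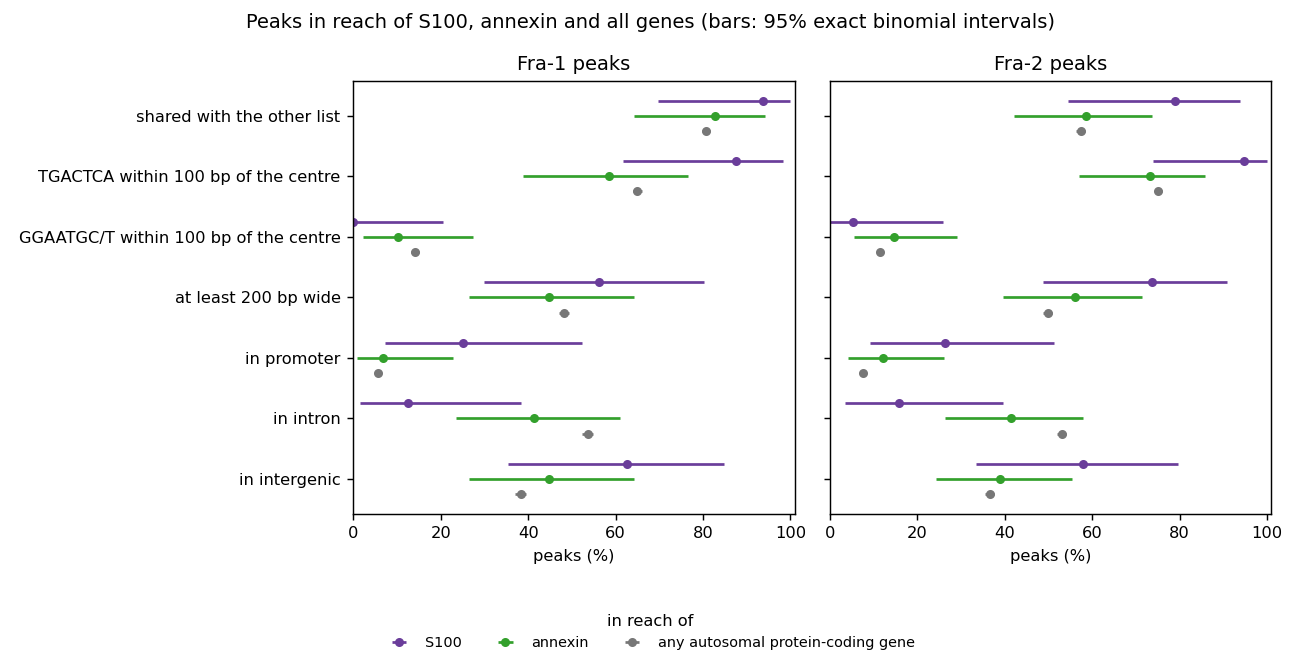
Percentage of Fra-1 (left) and Fra-2 (right) peaks with each feature, for peaks in reach of S100 genes (purple), annexins (green) and any autosomal protein-coding gene (grey), with 95% exact binomial intervals. TGACTCA reaches 94.7% of the Fra-2 peaks of S100 genes against 73.2% of those of annexins, and the intervals of the families overlap for every feature shown.

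By position, 6 of the 45 in the Fra-1 list (13.3%, 5.05 to 26.8) and 10 of the 60 in the Fra-2 list (16.7%, 8.29 to 28.5) lay at the promoter of any gene, against 5.57% and 7.62% of peaks in reach of all genes. The Fra-1 interval includes its background value and the Fra-2 interval lies above it. Introns held 31.1% (18.2 to 46.6) and 33.3% (21.7 to 46.7), against 53.6% and 53.0%. Both intron intervals lie below the value for all genes. Neither gene length nor the number of TSSs per gene was matched in this comparison. Peaks that lie close together, as on chromosome 1, are not independent.

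Few copies of the element lay in a peak at all. In reach of the 33 genes were 803 copies of TGACTCA, of which Fra-1 peaks covered 33 (4.11%, 2.85 to 5.72) and Fra-2 peaks 52 (6.48%, 4.87 to 8.41). In reach of any autosomal protein-coding gene the shares were 1.87% and 2.84% of 303643 copies. S100Z stood apart with 7 and 8 of 31 copies (22.6% and 25.8%). Without it the 33 genes' shares were 3.37% (2.21 to 4.90) and 5.70% (4.17 to 7.58) of 772 copies. The S100 genes had 7.0% and 9.05%, or 4.72% and 6.60% without S100Z, and the annexins 2.86% (1.64 to 4.60) and 5.36% (3.64 to 7.56). By the Fra-1 share, S100Z was followed by the S100A10 and S100A11 locus, ANXA2 with 7.32% and 9.76%, and ANXA5 with 6.06% and 9.09%. At ANXA1, with 48 copies in reach, 1 (2.08%) lay in a peak of each list.

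**Figure D5:**
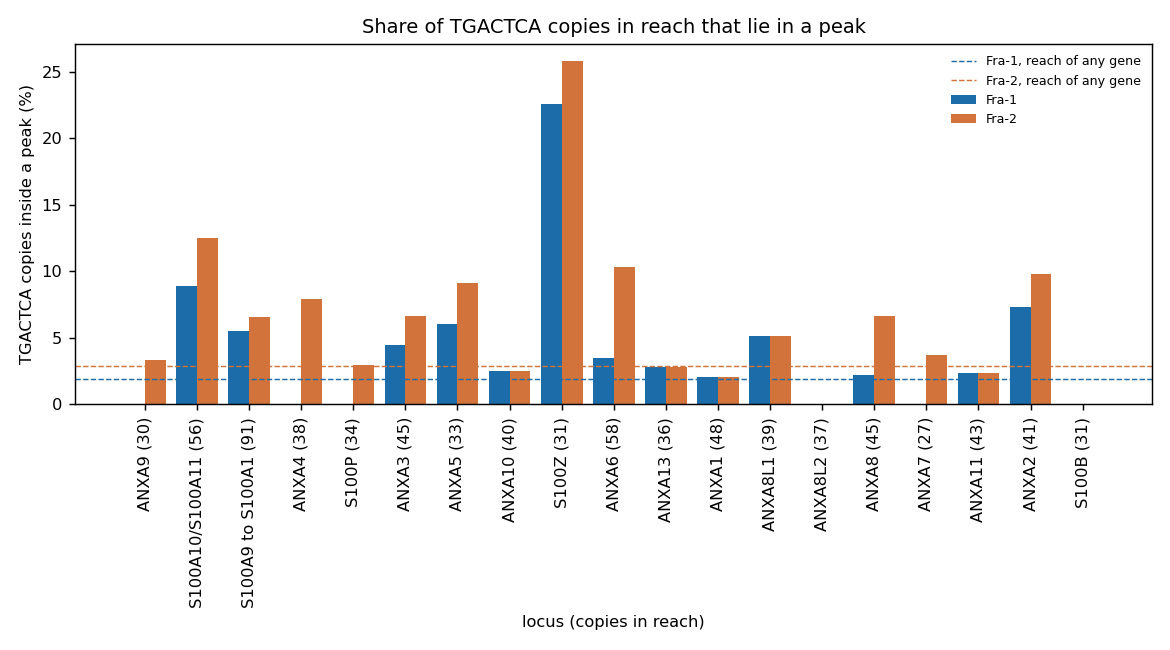
Percentage of the TGACTCA copies in reach of each locus that lie inside a Fra-1 (blue) or Fra-2 (orange) peak, with the number of copies in brackets; dashed lines give the shares for the reach of any gene, 1.87% and 2.84%. S100Z is highest with 22.6% and 25.8%, and ANXA8L2 and S100B are at 0.

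Genes that work with these proteins were counted in the same way. Of 20 receptors, targets and ligands of S100 proteins and annexins, 13 (65.0%) had a Fra-1 peak and 14 (70.0%) a Fra-2 peak in reach, next to 45.2% and 58.9% of all genes, and the median was 1 in each list. PRKCA, a kinase whose substrates include annexins, had 12 Fra-1 and 15 Fra-2 peaks over a long gene body. TGM2, the gene of tissue transglutaminase, had 6 and 12, MYH9, the myosin heavy chain bound by S100A4, 7 and 7, and AHNAK, a scaffold bound by the S100A10 and annexin A2 complex, 5 and 7. AGER and TLR4 had 1 peak in each list, and FPR1, FPR2 and PLG had 0.

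Fused S100 and cornified envelope genes that neighbour the S100 genes on chromosome 1 numbered 14. Of these, 7 (50%) had a Fra-1 peak and 6 (42.9%) a Fra-2 peak, next to 45.2% and 58.9% of all genes. None had one at a promoter, where only 1.91% (Fra-1) and 3.75% (Fra-2) of all genes had one. TCHHL1 had the most, 5 and 3, of which 6 were also in reach of S100 genes, followed by TCHH with 3 and 1. FLG, FLG2, CRNN, IVL, LORICRIN and PGLYRP3 had 0 in both lists. Of 14 other calcium-binding genes, 10 (71.4%) had a Fra-1 and 11 (78.6%) a Fra-2 peak, again next to 45.2% and 58.9%. CAPN2, the gene of a calpain protease, led with 10 and 11, then CALM2, a calmodulin gene, with 6 and 8, RCN1 with 4 and 5 and CALML3 with 2 and 6.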

How the data were processed

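ChIP-seq with antibodies to Fra-1 and Fra-2 was done in MDA-MB-231 cells, with 1 deposited peak list per factor. What the authors deposited is neither counts nor signal but other values: 2 coordinates per called peak, its first and last position, rounded to a 50 bp grid, without score or height. Bowtie2 and hg19 are named, per the submitters' processing notes. Which program called the peaks, at what threshold, whether against the input and how replicates entered is not given in the sources used here. In all there were 9998 Fra-1 and 13003 Fra-2 peaks. Read depth is unknown, and the intervals given reflect only the number of genes, peaks or copies counted.

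Peaks sharing at least 1 bp counted as shared. Genes and TSSs came from GENCODE 44, and sequence from GRCh37, read from the start of each deposited 1-based interval to the base before its end. Each centre was searched for TGACTCA and other words, on either strand, out to 100 bp. Shares have exact binomial intervals. The work used pysam 0.24.0, scipy 1.17.1, pandas 2.3.3 and numpy 2.4.6 under Python 3.11.15, and counting was tested on simulated data. The members and lists were chosen with earlier results of these data known. Every member is given by its counts. Those with a peak within 1 kb of a TSS, the 12 with the most peaks and the chromosome 1 loci are described with positions, and other members' positions were added after their values were seen. The sequence of 1 locus chosen by this rule is not reported here. No score was found, so peaks at least 200 bp wide served as the stricter list. Other reaches, TSS definitions, overlaps, motif windows and membership rules were tried.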

Additional observations from a re-analysis of the deposited data

How the results depend on the processing

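Over 11 results, 78 values were recomputed, of which 56 stayed close to the main value and 22 moved. For counts, close meant within a factor of 1.5. Counts and shares have no direction, so none could reverse. Leaving out repeat-like regions could change no value, since 0 of the 45 Fra-1 and 0 of the 60 Fra-2 peaks lay in one. With a reach of 10 kb, 12 genes had a Fra-1 peak, 19 a Fra-2 peak and 12 both, with 21 Fra-1 and 29 Fra-2 peaks. The shares of all genes given above are for the 100 kb reach and 1 kb promoters only. How the gene counts here compare with all genes at the same settings is therefore not known. Giving each peak to its nearest TSS left 12 genes with a Fra-1 peak, 15 with a Fra-2 peak and 11 with both, over 27 and 33 peaks. Peaks at least 200 bp wide numbered 22 and 37, left 2 genes with a Fra-1 promoter peak, and 86.4% of the Fra-1 peaks had TGACTCA. Counted as loci, 13 had a Fra-1 peak, 17 a Fra-2 peak and 13 both. TGACTCA within 50 bp of the centre had a share of 48.9% (Fra-1) and 61.7% (Fra-2). Promoters of 5 kb gave 8 and 12 genes, and the outermost 5′ end alone, added after seeing the data, 2 and 4. The cause was not tested. No paired analysis was possible because there is 1 list per factor, and for the same reason no replicate could be left out. Without scores or depth, weak and strong peaks could not be told apart.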
